A study of Homo sapiens with 28 samples.

Results

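The early response to auxin was measured in 16 RNA-seq libraries of SEM cells, out of 28 in the series. SEM is an established human cell line from a B-cell acute lymphoblastic leukemia with the MLL-AF4 fusion. In 8 libraries the cells had been given IAA for 6 h and in 8 they had not, and each arm held 2 libraries from each of 4 lines. All 4 lines descend from one CTCF-AID2 line. In it the endogenous CTCF protein carries an auxin-inducible degron tag, and the cells constitutively express OsTIR1(F74G), the receptor that marks the tagged protein for destruction when the auxin analog 5-Ph-IAA is present. The lines differ in a doxycycline-inducible, HA-tagged CTCF that was added to them, which is full length in the WT line, lacks zinc finger 1 in DeltaZ1 (dZF1 below), lacks zinc finger 10 in DeltaZ10 (dZF10) and lacks the RNA-binding region in DeltaRBR (dRBR). By the study's methods the auxin was 5-Ph-IAA at 10 μM, and doxycycline was given as well. The parent line also carries a doxycycline-inducible wild-type OsTIR1. The labels name only IAA, so which of the 16 libraries came from cells with added CTCF protein was not tested here. In the study's immunoblot of these lines, untreated cells had received neither compound. If doxycycline went only to the IAA arm here too, its effect cannot be told apart from that of IAA. Nor do the labels say that replicates were separate cultures, so a p-value here covers only how far these libraries scatter, and that scatter may be technical. The other 12 libraries formed the 24 h set, with 4 treated and 4 untreated CTCFAID2 libraries (1 μM 5-Ph-IAA in their titles) and 2 treated and 2 untreated libraries of SEM cells without the degron. By the methods, those last cells received natural IAA at a much higher dose in place of 5-Ph-IAA, together with doxycycline.

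CTCF is a zinc finger protein that binds DNA and holds cohesin, the ring-shaped complex that extrudes chromatin loops, at loop anchors. It also binds close to the start sites of many genes. Immediate early genes are a separate class, switched on within minutes to hours of a stimulus by factors that are already present in the cell, and many of them encode transcription factors themselves.

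Total counts per 6 h library ran from 25.8 M to 60.7 M with a median of 43.2 M, and levels below are counts scaled to the library total (CPM). Replicates of 7 of the 8 groups differed by an SD of 0.131 to 0.211 in log2 CPM across genes. The exception was dZF1 with IAA, at 0.453. Its replicate 2 stood apart from the rest of the set, at -27.3 on the second principal component when no other library was below -5.64. The pooled calls, gene lists and interaction counts were therefore also made without it. Markers of T and NK cells summed to between 60.5 and 70.1 CPM with IAA and between 61.2 and 72.5 CPM without, nearly all from TRAC and NKG7, while CD3D, GZMB and TRBC2 were at 0. Erythroid markers summed to at most 0.205 CPM. Stromal markers summed to 819 to 911 CPM with IAA against 618 to 671 without, nearly all from VIM, which rose, and PDGFRB, and COL1A2, DCN and LUM were at 0. Myeloid markers summed to 21.5 to 27.3 CPM against 34.9 to 48.3, mainly from CSF1R and LYZ, with S100A8 at 0. Of the B-lineage markers, PAX5 ran from 553 to 790 CPM over the 16 libraries, EBF1 from 173 to 226 CPM and CD79A from 112 to 168 CPM, with means of 124.7 CPM without IAA and 154 CPM with it. The stromal and myeloid sums moved with treatment, and their part in the results below was not tested.

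The shared response was broad and shallow. Among 13902 genes tested with line as covariate (limma-voom, 8 against 8 libraries), 3485 were higher with IAA and 3607 were lower at an adjusted p of at most 0.05, which is 25.1% and 25.9% of the genes tested. The median size of these 7092 changes was 0.28 on the log2 scale, or 1.21-fold. Of them, 2998 were smaller than 0.25 in log2, 2795 lay between 0.25 and 0.5, 1098 between 0.5 and 1, and 201 reached 2-fold. The 2-fold changes comprised 98 rises (0.705% of genes tested) and 103 falls (0.741%). The median over all genes tested was -0.01, close to 0. Counts of gene list members below are to be read against the shares of 25.1% and 25.9%. The lists were chosen with earlier results of these data known. Their counts describe the members and are no independent evidence that a class moved.

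Most of these changes, though small, pointed one way in all 4 lines. The mean change within each line had the sign of the pooled change for 3266 of the rises (23.5% of genes tested) and 3362 of the falls (24.2%), together 93.5% of the calls. A stricter reading asked that both IAA libraries lie beyond both untreated ones in every line. Whether or not they passed the test, 1923 genes met this upward (13.8%) and 1847 downward (13.3%). For 1363 genes all 8 treated libraries were above all 8 untreated ones (9.80%), and for 1231 all 8 were below (8.85%). Without replicate 2 of dZF1 with IAA, 3709 genes were higher and 3861 lower. Of the 7092 calls, 6803 (95.9%) passed again with the same sign and 278 did not pass.

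**Figure D1:**
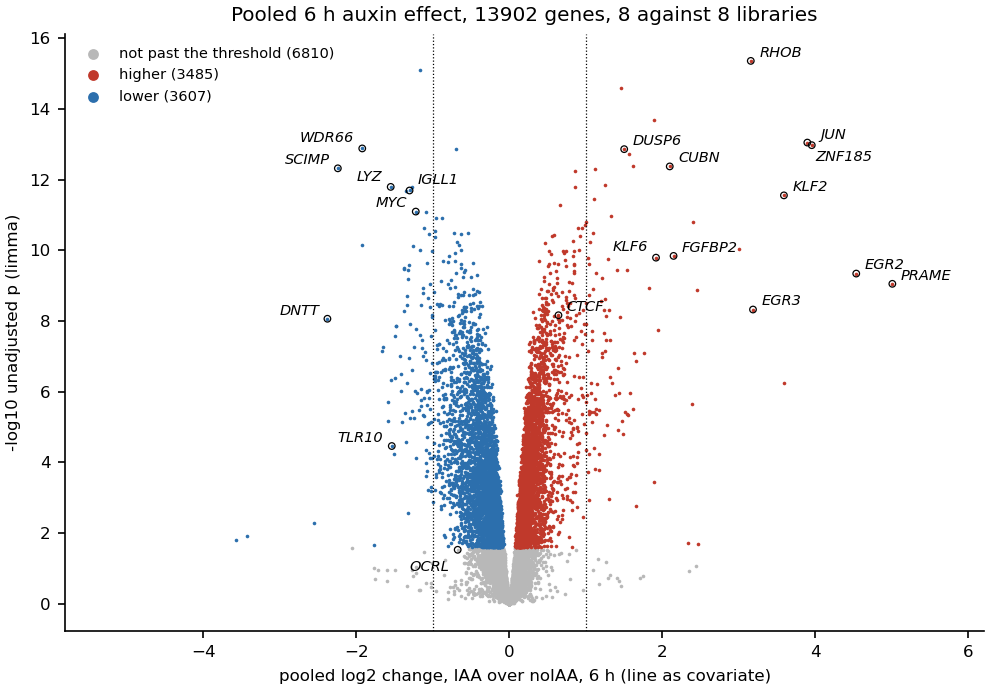
Pooled log2 change with IAA at 6 h (x axis) against the unadjusted limma p on a -log10 scale (y axis), 1 point per gene for 13902 genes; red points passed upward (3485), blue points passed downward (3607), gray points did not pass, and dotted lines mark 2-fold. Most colored points lie inside the dotted lines, and the rises include JUN at 3.95, EGR2 at 4.53 and PRAME at 5.01 and the falls DNTT at -2.38 and SCIMP at -2.24.

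CTCF, the gene whose protein is degraded, had more transcript in every treated library. CTCF ran from 149 to 166 CPM without IAA (median 155) and from 208 to 307 CPM with IAA (median 242). The arms did not overlap, and the highest value was that of dZF1 replicate 2. The pooled log2 change was 0.64 ± 0.06 (SE, adjusted p = 4.2e-07, limma), and it was 0.60 without that library. Since auxin removes CTCF as protein, its RNA does not check the treatment, and RNA of the endogenous gene and of an added HA-CTCF cannot be told apart in these gene counts. STAG1, which encodes a cohesin subunit, moved with it, from a median of 95.7 CPM (90.8 to 108) to 160 CPM (133 to 238), a log2 change of 0.81 ± 0.07 (adjusted p = 6.7e-07, limma). Of 25 tested genes for CTCF, cohesin and loop factors, 10 rose and 5 fell, with a median of 0.04. The falls were a smaller share than the 25.9% over all genes tested, and the rises a larger one than the 25.1%. The falls included ADNP, a zinc finger protein of chromatin remodeling (-0.39), and MAZ, a zinc finger factor that binds GC-rich DNA (-0.30).

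Several of the steepest rises were those of immediate early transcription factor genes. JUN, a subunit of the AP-1 transcription factor, ran from 7.26 to 8.32 CPM without IAA (median 7.5) and from 74.8 to 182 CPM with it (median 122). The lowest treated value, in dZF1 replicate 2, was still far above every untreated one, and the 4 line changes lay between 3.69 and 4.16. The pooled log2 change was 3.95 ± 0.16 (adjusted p = 2.1e-10, limma). KLF2, a zinc finger factor of quiescent lymphocytes, went from a median of 1.14 CPM (0.806 to 1.82) to 15.4 CPM (10.8 to 19.8), a log2 change of 3.59 ± 0.18. EGR1, the prototype of the early growth response factors, went from a median of 12.2 CPM (7.49 to 15) to 65.8 CPM (35.9 to 94.5), a log2 change of 2.45 ± 0.19. Its 2 dZF1 libraries with IAA held the highest and the lowest treated value. The paralogs EGR2 and EGR3 were near the floor without IAA, at medians of 0.287 and 0.20 CPM, and rose to medians of 4.55 and 2.04 CPM, so their log2 changes of 4.53 ± 0.33 and 3.18 ± 0.27 rest on 64 and 73 untreated counts in all.

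Of the 29 immediate early and AP-1 genes listed, 24 were expressed enough to be tested. Of these, 18 rose and 3 fell, with a median log2 change of 0.90, and 11 changed at least 2-fold. Further members by smallest p were KLF6, a zinc finger factor of the early response (1.92 ± 0.13, from a median of 36.3 to 146 CPM), and MCL1, a short-lived survival protein of the BCL2 family (0.51 ± 0.04, from 227 to 323 CPM). Without replicate 2 of dZF1 with IAA the counts were again 18 and 3. SRF, which encodes the serum response factor that drives many immediate early genes, rose by 0.59 (adjusted p = 8.2e-06, limma), and is named here after its value was seen. The serum response factor binds a motif called the CArG box. The windows before EGR1 and SRF are shown because each holds 2 CArG boxes, printed in capitals. They are the 250 bases before the start site from RefSeq, GRCh38.p14, EGR1 at chr5:138465229-138465478 on the plus strand and SRF at chr6:43171019-43171268 on the plus strand, written 5′ to 3′.
EGR1: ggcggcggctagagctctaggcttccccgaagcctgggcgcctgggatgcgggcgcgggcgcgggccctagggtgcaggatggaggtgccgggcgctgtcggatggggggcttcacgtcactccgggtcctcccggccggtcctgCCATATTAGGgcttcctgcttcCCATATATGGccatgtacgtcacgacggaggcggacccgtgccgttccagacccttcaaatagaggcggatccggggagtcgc
SRF: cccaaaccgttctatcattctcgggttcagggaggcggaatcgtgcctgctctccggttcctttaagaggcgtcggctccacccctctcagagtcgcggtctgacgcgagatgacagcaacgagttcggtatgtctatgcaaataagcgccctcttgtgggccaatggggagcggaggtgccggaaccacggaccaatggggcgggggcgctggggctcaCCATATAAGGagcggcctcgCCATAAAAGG
The boxes began 105 and 83 bases before the start of EGR1, and 30 and 10 bases before that of SRF. A RefSeq window of 250 bases before to 50 after a start was matched for 2823 of the 3485 genes that rose (81.0%), the first listed window of each gene being used. A CArG box on either strand was found in 41 of them (1.45%), and in 104 of the 10063 tested genes with a window (1.03%). No exact CArG box was in the windows of JUN, EGR2, KLF2 or RHOB. A match is a match of letters and shows no binding.

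RHOB had the smallest p of all rises. RHOB encodes a small GTPase of the endosome and is itself an immediate early gene, and it went from a median of 12.6 CPM (11.4 to 13.9) to 113 CPM (92.3 to 148), a log2 change of 3.16 ± 0.09 (adjusted p = 5.6e-12, limma). The untreated libraries were nearly alike, and every treated one lay far above them.

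The remaining steep rises were of genes with other roles. ZNF185, which encodes a LIM domain protein of the actin cytoskeleton, ran from 0.547 to 1.01 CPM without IAA (median 0.788) and from 7.80 to 14.9 CPM with it (median 11.9). Its pooled log2 change was 3.89 ± 0.16 (adjusted p = 2.1e-10, limma), with 3.09 in dRBR as the lowest line and 4.41 in dZF10 as the highest. ENPP3, a surface ectonucleotidase, rose by 3.0 ± 0.19 from a median of 0.167 to 1.34 CPM. FGFBP2, a secreted protein of the fibroblast growth factor binding family, went from a median of 0.893 CPM (0.595 to 1.21) to 3.71 CPM (3.49 to 5.29), a log2 change of 2.15 ± 0.14. CUBN, the endocytic receptor cubilin, rose by 2.10 ± 0.09 from a median of 2.29 to 10.2 CPM. CCNB3, a B-type cyclin, rose by 1.95 ± 0.18. MIR22HG, the host transcript of miR-22, rose by 2.40 ± 0.14. For each of these 6 genes the arms were apart in all 8 against 8 libraries.

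The windows of MIR22HG and PRAME are shown because they hold the core CTCF motif next to genes that rose at least 2-fold. The motif was searched on both strands as CCA, any 2 bases, AG, any 2 bases and GGC. They are again the 250 bases before the start from RefSeq, GRCh38.p14, MIR22HG at chr17:1716211-1716460 and PRAME at chr22:22559266-22559515, both on the minus strand, written 5′ to 3′ with the motif in capitals.
MIR22HG: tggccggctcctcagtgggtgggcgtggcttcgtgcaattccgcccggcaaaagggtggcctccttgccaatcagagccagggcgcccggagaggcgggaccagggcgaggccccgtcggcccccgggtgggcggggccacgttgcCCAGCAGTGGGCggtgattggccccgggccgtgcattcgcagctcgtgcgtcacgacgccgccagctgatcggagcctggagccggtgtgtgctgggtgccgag
PRAME: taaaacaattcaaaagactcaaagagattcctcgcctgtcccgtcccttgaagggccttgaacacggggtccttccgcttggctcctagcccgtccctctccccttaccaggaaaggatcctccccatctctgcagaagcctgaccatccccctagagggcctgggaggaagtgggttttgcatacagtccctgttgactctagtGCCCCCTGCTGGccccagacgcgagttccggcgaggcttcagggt
The match began 104 bases before the start of MIR22HG and 45 bases before that of PRAME, where it reads on the opposite strand. PRAME, a tumor antigen gene, held 5 counts over all 8 untreated libraries and 250 over the 8 treated ones, and its fitted log2 change of 5.01 ± 0.38 depends on the floor. The core motif was present in 84 of the 2823 genes that rose and had a window (2.98%), and in 293 of the 10063 tested genes with one (2.91%). A window was found for 2526 of the 3607 genes that fell (70.0%), against 72.4% of all genes tested and 81.0% of those that rose. The core motif was in 78 of those 2526 (3.09%) and a CArG box in 20 (0.792%).

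Most tested genes on a list of ERK phosphatases and feedback inhibitors rose. The ERK pathway carries growth signals to the nucleus, and its phosphatases and Sprouty proteins damp it. Of 16 tested members, 12 rose and 0 fell, with a median log2 change of 0.44. DUSP6, a cytoplasmic ERK phosphatase, went from a median of 25.4 CPM (22.9 to 31.7) to 71.4 CPM (67.4 to 91.4), a log2 change of 1.5 ± 0.06 (adjusted p = 2.1e-10, limma). Its arms were far apart, and dZF1 replicate 2 again held the highest value. Of the other listed members, SPRY4 rose by 0.81 ± 0.06 and SPRY2 by 0.34 ± 0.03. DUSP10, whose action on ERK was not tested here, rose by 1.0 ± 0.08. Without that library 11 members rose.

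Several stress and signaling lists had more rises than falls, where 25.1% of all genes tested rose and 25.9% fell. Of 22 genes of the unfolded protein response, 13 rose and 3 fell. PPP1R15A, a regulator of the eIF2α phosphatase, went from a median of 25.8 to 53.4 CPM (1.1 ± 0.06), and the chaperone genes DNAJC3 (0.44), CRELD2 (0.43) and PDIA4 (0.26) rose less. Of 27 interferon-stimulated genes, 14 rose and 2 fell, each by less than 0.6, with IFI6 at 0.56 and MX2 and USP18 at 0.50. Of 45 genes of G2 and M phase, 25 rose and 0 fell, with a median of only 0.15. The median was 0.36 in dZF1, 0.09 in WT, 0.10 in dZF10 and 0.11 in dRBR. Without replicate 2 of dZF1 with IAA the pooled median was 0.11, with 26 rises and 1 fall. KIF4A, a mitotic kinesin, was the steepest of the 4 named (0.39), followed by TPX2 (0.29), CKS2 (0.22) and CCNB1 (0.22). In KIF4A the value of dZF1 replicate 2 was 117 CPM against 84.8 to 99.0 in the other treated libraries. Of 13 NRF2 targets, 5 rose and 2 fell, and NQO1, an antioxidant quinone reductase, led them (0.95 ± 0.10, from 16 to 31.4 CPM in median). Of 5 tested targets of the aryl hydrocarbon receptor, 4 rose and 1 fell. The rises included NQO1, which is on both lists, and the fall was AHRR, the repressor of that receptor, from a median of 7.93 to 4.10 CPM (-1.09 ± 0.06), while AHR rose by 0.47 and TIPARP by 0.32.

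Lists linked to Wnt and NF-kB signaling were mixed. Against 25.1% of all genes tested that rose and 25.9% that fell, the share of Wnt falls was close to the background. Of 12 Wnt feedback genes, 5 rose and 3 fell, with LGR5, a receptor for R-spondins, from a median of 0.96 to 2.7 CPM (1.54 ± 0.11) and CTNNB1, which encodes beta-catenin, at 0.26. Of 21 NF-kB feedback genes, 4 rose and 8 fell. CD69, an early activation antigen of lymphocytes, rose from a median of 8.52 to 28.4 CPM (1.63 ± 0.17) and NFKBIZ by 0.86, whereas TNFAIP3, the A20 inhibitor, fell by 0.31 and IL8 by 0.91. Of 18 p53 targets, 2 rose and 3 fell, a smaller share than among all genes tested in each direction. BTG2, an antiproliferative gene, rose by 0.85 and CDKN1A fell by 0.23.

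**Figure D2:**
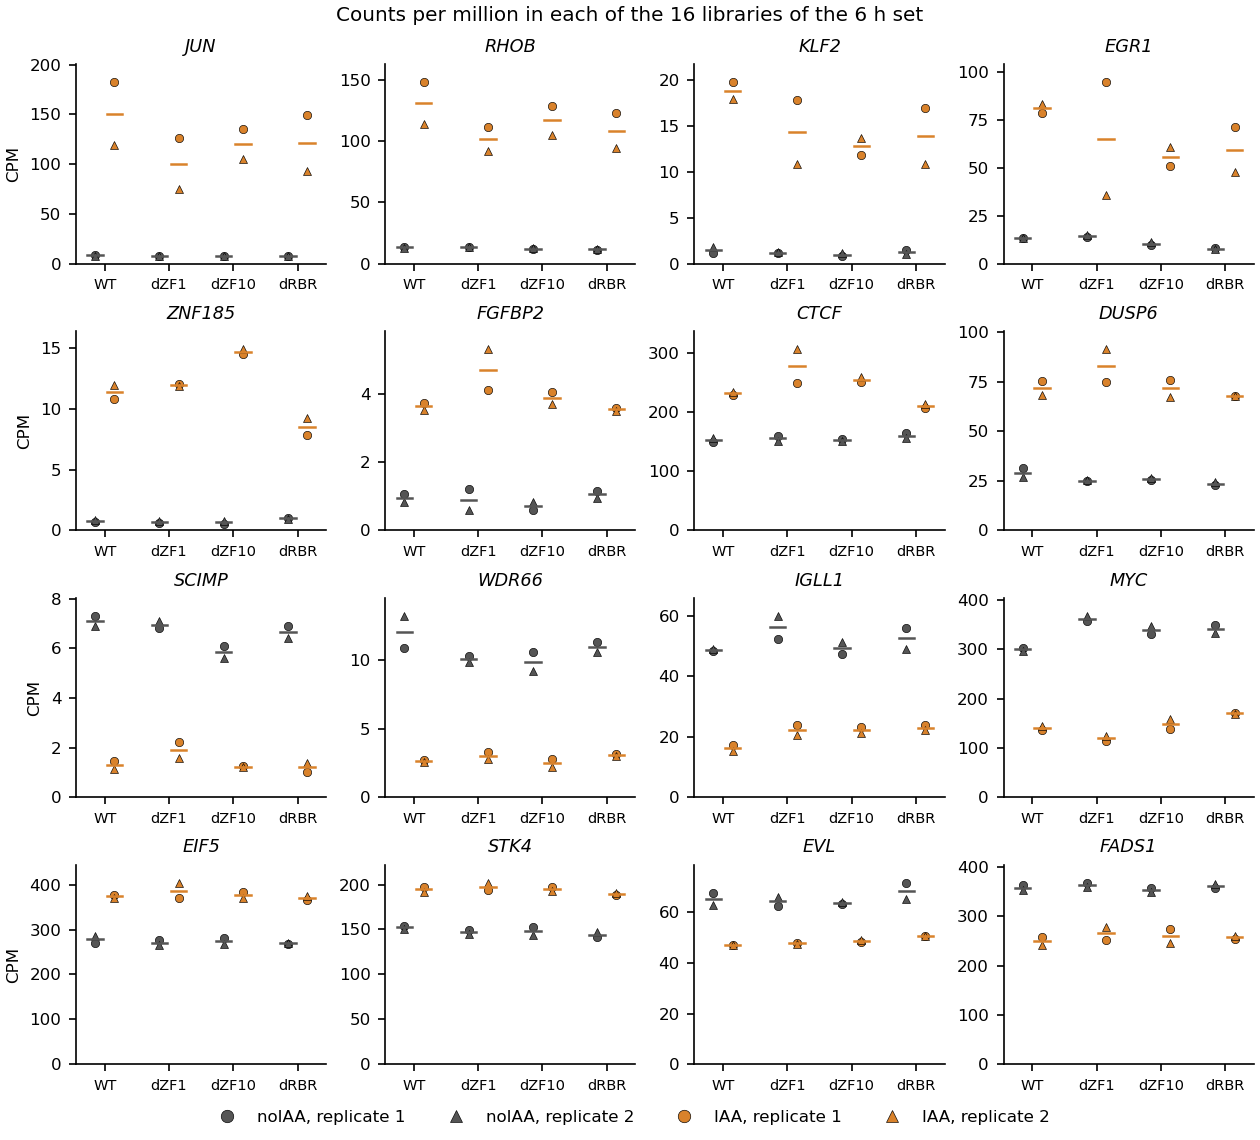
CPM on a linear axis from 0 (y) for 16 genes in the 4 lines (x), gray without IAA and orange with IAA; circles are replicate 1, triangles replicate 2 and bars their mean. In every panel the 8 orange points lie on one side of the 8 gray ones, as in RHOB with 92.3 to 148 CPM against 11.4 to 13.9 and STK4 with 189 to 202 CPM against 142 to 154.

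Among falls of one sign in all lines with a mean of at least 1 CPM in the untreated arm, clone names aside, the steepest was that of SCIMP, an adaptor protein of antigen-presenting cells. SCIMP ran from 5.61 to 7.30 CPM without IAA (median 6.86) and from 1.02 to 2.24 CPM with it (median 1.33), with the 2 highest treated values in dZF1. The log2 change was -2.24 ± 0.10 (adjusted p = 5.1e-10, limma). WDR66, a WD repeat protein of cilia, went from a median of 10.5 CPM (9.20 to 13.2) to 2.79 CPM (2.23 to 3.31), a log2 change of -1.92 ± 0.08. LYZ, which encodes lysozyme, went from a median of 10.0 CPM (8.53 to 14.9) to 3.54 CPM (2.81 to 4.70), a log2 change of -1.55 ± 0.08. SERINC2, which encodes a serine incorporator, fell by 1.38 ± 0.10 from a median of 10.8 to 4.12 CPM, and COMTD1, a methyltransferase-like gene, by 1.38 ± 0.10 from 7.17 to 2.61 CPM. The other steep falls concerned genes of low abundance, with untreated medians from 1.11 CPM in LINC00263 to 2.41 CPM in IL9R, namely DHRS9 (-1.92), LINC00263 (-1.58), MYLK3 (-1.5), PTPRF (-1.49), IL9R (-1.48) and NTN3 (-1.42). IL9R lies in the pseudoautosomal region, where counts may be split with the Y copy. In all 12 genes picked by that rule, TLR10 included, the 8 treated libraries were below the 8 untreated ones.

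MYC, the growth-regulating transcription factor, fell in every line. MYC ran from 297 to 366 CPM without IAA (median 340) and from 115 to 170 CPM with it (median 141). The lowest treated values were in dZF1 and the highest in dRBR. The pooled log2 change was -1.22 ± 0.07 (adjusted p = 4.5e-09, limma), with line changes from -1.60 in dZF1 to -1.0 in dRBR. Of 56 MYC targets of ribosome biogenesis and growth, 31 fell and 3 rose, with a median of -0.14 (MYC itself is among them), so the members moved far less than MYC. NOLC1, a nucleolar phosphoprotein, fell by 0.44 ± 0.05 and MYBBP1A, another nucleolar protein, by 0.51 ± 0.07. Of 11 tested genes of the MAX network, through whose shared partner MYC binds DNA, 2 rose and 5 fell. Over all genes tested the shares were 25.1% and 25.9%. MXD3 rose by 0.37, whereas MXI1 fell by 0.65 and MYCL by 0.40. Of 38 genes of G1 and S phase, 7 rose and 15 fell, with CCND3, a cyclin of lymphoid cells, at -0.43, UHRF1, which maintains DNA methylation, at -0.39, MCM2 at -0.25 and MCM5 at -0.24.

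Many genes of B-cell identity fell. Of 39 tested transcription factor and surface genes of the B lineage, 25 fell and 4 rose, with a median of -0.38. IGLL1, a surrogate light chain of the pre-B receptor, went from a median of 50.2 CPM (47.3 to 59.9) to 21.8 CPM (15.3 to 24.0), a log2 change of -1.30 ± 0.07 (adjusted p = 1.4e-09, limma). The arms did not overlap, and both WT libraries held the lowest treated values. MYB, a transcription factor of immature blood cells, went from a median of 174 CPM (165 to 186) to 98.5 CPM (78.5 to 141), a log2 change of -0.79 ± 0.07. IKZF2, an Ikaros family factor, fell by 0.74 ± 0.07, and CD22, an inhibitory B-cell receptor, by 0.68 ± 0.04 from a median of 94.3 to 60.9 CPM. DNTT, the terminal transferase of early lymphocytes, fell by 2.38 ± 0.21 from 0.763 to 0.126 CPM. The 4 that rose, named after their values were seen, were CD79A (0.31), a signaling chain of the B-cell receptor, the kinase genes BTK (0.22) and SYK (0.22), and FLT3 (0.27), a growth factor receptor. Without replicate 2 of dZF1 with IAA, 27 members fell and 5 rose. Fewer cells of a type and less RNA per cell cannot be told apart in bulk libraries. Of 4 tested myeloid markers, 3 fell and 1 rose, with CSF1R, a macrophage growth factor receptor, at -0.79 and CD33 at -0.45, while ITGAM rose by 0.63.

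Of 24 genes of cholesterol synthesis, 16 fell and 1 rose, with a median of -0.24. MVK, mevalonate kinase, fell by 0.61 ± 0.05 from a median of 25.3 to 16.5 CPM, and the sterol regulators and enzymes HMGCS1 (-0.45), INSIG1 (-0.42), HSD17B7 (-0.36) and TMEM97 (-0.33) fell with it. Of 30 genes of the amino acid response, the program led by the transcription factor ATF4, 19 fell and 2 rose, with a median of -0.22. GPT2, a mitochondrial alanine transaminase, fell by 0.72 ± 0.04, DDIT4, an inhibitor of mTORC1, by 0.63 ± 0.04, CBS, of the transsulfuration pathway, by 0.53 ± 0.04, and STC2 by 0.52 ± 0.05. One member, INHBE, an inhibin subunit named here after its value was seen, fell more than 2-fold (-1.08). DDIT3, the stress factor CHOP, rose by 0.43 ± 0.07 although it belongs to the same program. ASNS, asparagine synthetase, did not pass (-0.06 ± 0.04, adjusted p = 0.24), and TRIB3 passed only narrowly (-0.14 ± 0.05, adjusted p = 0.041, limma) and changed sign among the lines. Without replicate 2 of dZF1 with IAA it did not pass (-0.11, adjusted p = 0.069, limma).

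Of 12 tested clustered protocadherin genes, whose promoter choice depends on CTCF, 7 fell and 1 rose. The falls included PCDHGB3 (-0.70), PCDHGC4 (-0.54) and PCDHGC5 (-0.44), and PCDHGA12 rose by 0.44. These gamma genes overlap one another and share exons, so their counts are uncertain. The same holds for other named genes that overlap a neighbor, such as FGFBP2 within PROM1 and FADS1 beside FADS2, since the strand setting of the counting was not stated. Of 10 tested imprinted genes, 6 fell and 0 rose, with MEST at -0.74, L3MBTL1 at -0.70, PEG10 at -0.43 and PLAGL1 at -0.36. DDN, which encodes the neuronal and kidney protein dendrin, went from a median of 19.5 CPM (16.7 to 21.5) to 8.76 CPM (5.07 to 10.3), a log2 change of -1.22 ± 0.11. Within lines the change of DDN was -1.90 in dZF1, -1.26 in dZF10, -0.96 in WT and -0.80 in dRBR. Of 6 genes that the study itself discusses, a choice made on these samples and no independent evidence of direction, 2 rose and 3 fell, or 2 and 2 without replicate 2 of dZF1 with IAA. Of 31 genes of the MLL-AF4 program, 8 rose and 9 fell, shares close to those over all genes tested, among them KMT2A (-0.37) and AFF1 (-0.26), the fusion partners, and MEIS1 (0.20).

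Among abundant RNAs, none of the 14 polymerase III and scaffold RNAs rose and 2 fell (RN7SL1 at -0.28 and NEAT1 at -0.39), with a median of -0.14 that became -0.02 without dZF1 replicate 2, and 2 fell then too. RMRP, the RNA of the RNase MRP particle, was at 2970 CPM there and at 5308 to 6548 CPM in the other treated libraries. None of the 13 mitochondrial mRNAs rose and 3 fell, each at an adjusted p of 0.049.

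**Figure D3:**
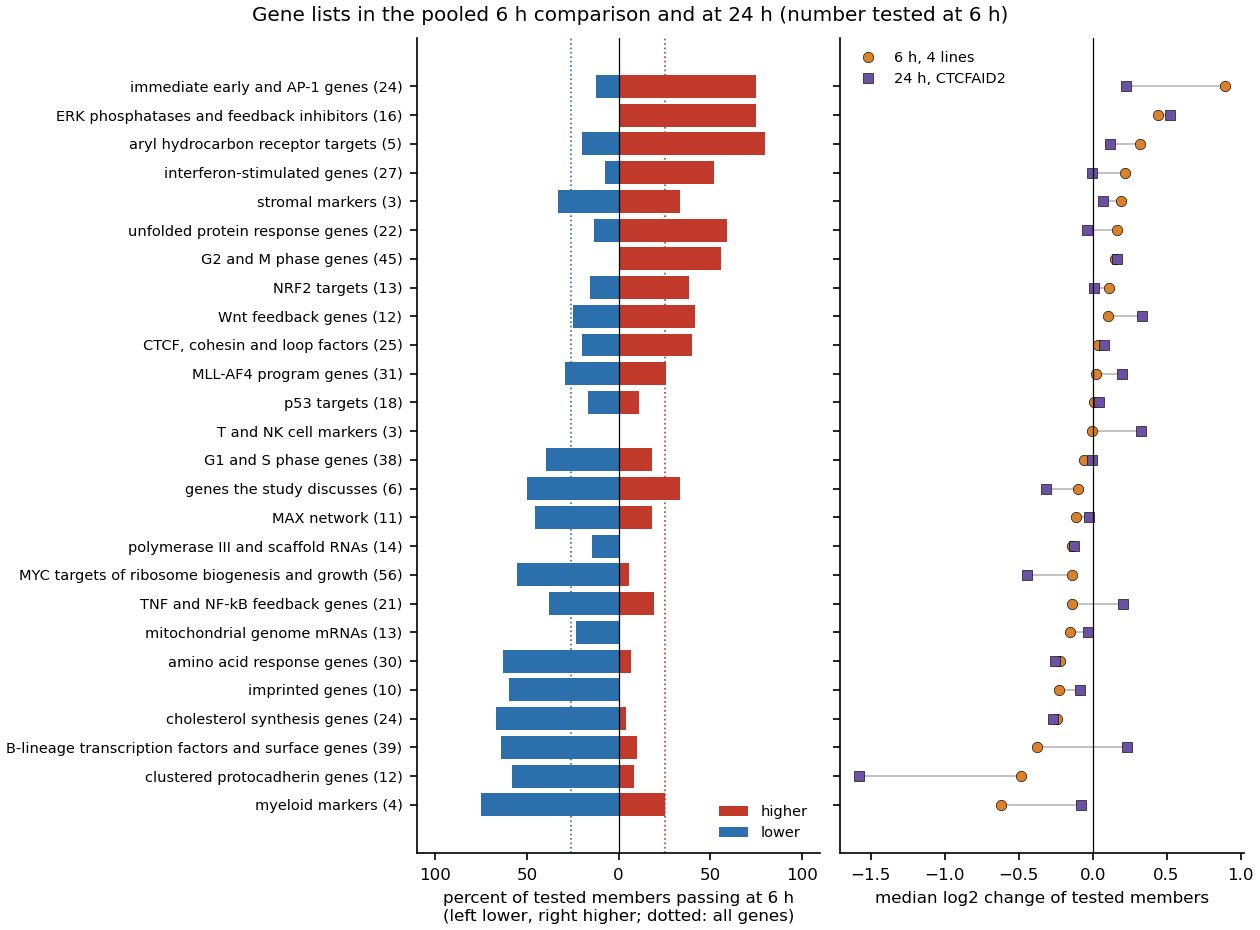
Left, percent of each list's tested members that passed downward (blue, to the left) or upward (red, to the right) at 6 h, with dotted lines at the shares over all genes (25.9% and 25.1%) and the number tested in brackets; right, the median log2 change at 6 h (orange circles) and in CTCFAID2 cells at 24 h (purple squares). The immediate early genes lead upward at 0.90 and sit at 0.23 at 24 h, and the B-lineage genes move from -0.38 to 0.23.

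Some small changes were regular across libraries. A rule that itself asks for this picked the 6 rises and 6 falls with the smallest p among changes under 0.5 in log2 whose libraries were separated in every line. STK4, a kinase of the Hippo pathway, ran from 142 to 154 CPM without IAA (median 148) and from 189 to 202 CPM with it (median 193), with line changes of 0.35 to 0.42. The pooled log2 change was 0.39 ± 0.03 (adjusted p = 3.9e-08, limma). EIF5, a translation initiation factor, went from a median of 270.4 CPM (265 to 285) to 373 CPM (366 to 403), a log2 change of 0.47 ± 0.03. Its line changes lay within 0.43 to 0.51, and its highest value was in dZF1 replicate 2. The 4 other rises were GABPB2 (0.49), PPM1L (0.46), UBE2H (0.45) and MYO5A (0.41). EVL, an actin-binding protein, went from a median of 64.5 CPM (62.5 to 71.5) to 48.2 CPM (47.2 to 50.6), a log2 change of -0.43 ± 0.03 with line changes from -0.46 to -0.38. FADS1, a fatty acid desaturase, fell by 0.48 ± 0.03, from a median of 359 to 256 CPM. The other falls were PTPN7, a lymphoid phosphatase (-0.48), HMGCS1 (-0.45), EZH1, a histone methyltransferase (-0.42), and UHRF1 (-0.39). For all 12 genes the arms did not overlap, and leaving out replicate 2 of dZF1 with IAA moved no log2 change across 0 or by more than its SE.

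**Figure D4:**
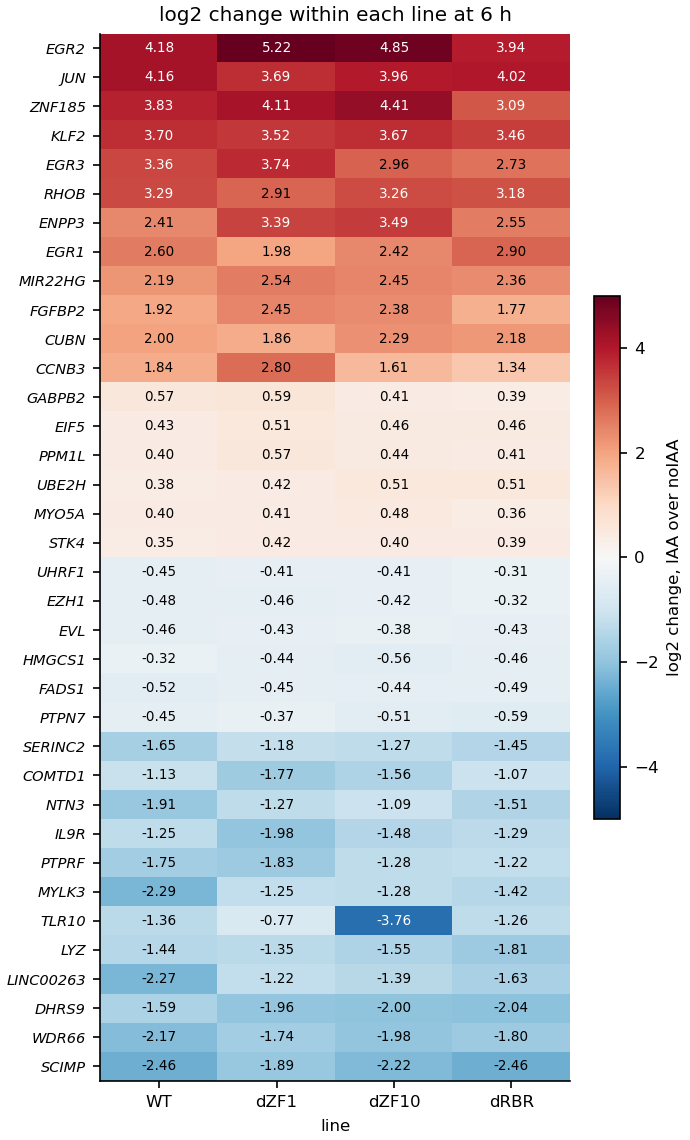
Heat map of the log2 change with IAA within each line (columns) for the 12 steepest rises, the 12 steepest falls and the 12 small steady changes (rows), red upward and blue downward, with the value printed in each cell. Each row has one sign across its 4 cells, small changes such as EIF5 (0.43 to 0.51) included, and the cell that departs most from its gene's pooled change is TLR10 in dZF10 at -3.76.

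Few genes differed between lines by the test itself. The interaction of line and IAA passed for 20 genes (0.144% of genes tested). OCRL, a phosphoinositide phosphatase, had group means of 10.3 to 10.8 CPM in all untreated lines and of 9.51, 10.1 and 7.95 CPM with IAA in WT, dZF1 and dRBR, but 1.18 CPM with IAA in dZF10. Its pooled change did not pass (-0.67 ± 0.28, adjusted p = 0.057, limma) and its interaction did (adjusted p = 3.2e-05). ZBTB39, a zinc finger gene, fell by 1.94 in dZF10 and by 0.32 to 0.67 elsewhere, TLR10, a Toll-like receptor, by 3.76 against 0.77 to 1.36, and its neighbor TLR1 by 1.51 against 0.40 to 0.76. In dZF1 the departures went both ways. TNFRSF10B, a death receptor, changed by -0.65 there and by -0.26 to 0.14 elsewhere. RORB, a nuclear receptor, had a mean of 40.4 CPM with IAA in dZF1 against 20.4 to 21.8 CPM with IAA in the other lines, and UGT3A2 changed by 0.32 in dZF1 and by -0.61 to -0.31 in the others. OCRL and ZBTB39 passed the interaction test whichever of the 16 libraries was left out. The number of genes that passed did not, and ran from 3 to 9 for most omissions, 46 without replicate 2 of dZF1 with IAA and 2919 without its replicate 1, which leaves the outlying library alone in its group.

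The 24 h set shows how the early changes stood later, with the limit that cells and dose differ between the sets and cannot be told apart from time. The same holds for the inducible HA-CTCF of the 6 h lines and for doxycycline, which the methods do not name for CTCFAID2 cells. In a joint fit of all 28 libraries, 277 genes were at least 2-fold higher at 24 h in CTCFAID2 cells (1.94% of 14260 tested) and 235 at least 2-fold lower (1.65%). Of the 98 genes at least 2-fold higher at 6 h, 51 (52.0%) were so at 24 h, which is 18.4% of the 24 h list. Another 21 were higher by less than 2-fold, 2 were lower and 24 did not pass. Of the 103 genes at least 2-fold lower at 6 h, 19 (18.4%) were so at 24 h, or 8.09% of that list, 40 were lower by less, 3 were higher and 41 did not pass. The difference between the 24 h and the mean 6 h effect passed upward for 3512 genes (24.6%) and downward for 3285 (23.0%). In SEM cells without the degron, which received another compound, 8 of the 98 rises also rose (8.16%) and 7 fell (7.14%). Of the 103 falls, 11 also fell there (10.7%) and 6 rose (5.83%). Among all 3485 genes higher at 6 h, 6.54% also rose in these cells and 6.63% fell. Among all 3607 genes lower at 6 h, 5.21% also fell and 6.27% rose. A share over all genes tested is not given for these cells, so the counts of 8, 7, 11 and 6 lack that background.

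Immediate early genes named above were less raised at 24 h, when the log2 change was 0.34 for JUN, 0.12 for RHOB, 0.32 for EGR3 and 0.25 for KLF6, none of which passed. EGR1 did not pass either (0.74), while KLF2 (1.07), EGR2 (1.33) and MCL1 (0.21) did. The differences were -3.62 for JUN and -3.04 for RHOB. CUBN was at 0.11 at 24 h. By contrast, ZNF185 stood at 5.22 at 24 h, FGFBP2 at 4.77, ENPP3 at 4.39, CCNB3 at 3.19 and LGR5 at 2.94, each larger than at 6 h by 1.29 to 2.64. The PRAME value was 7.11. CTCF itself was at 0.78 and STAG1 at 1.27. SEM cells without the degron had no passing change in JUN, RHOB, ZNF185, FGFBP2, LGR5 or CTCF at 24 h, while ENPP3 was at -2.28 there.

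Among the falls, SERINC2 was at 0.57 and MYB at 0.40 at 24 h, both now upward, while IGLL1 (0.10), CD22 (0.10), IKZF2 (0.00) and DNTT (-0.21) did not pass. The B-lineage list, with 25 falls at 6 h, had 22 rises and 6 falls at 24 h and a median of 0.23. DDN was at -2.47. TLR10 was at -3.89, OCRL at -2.93 and ZBTB39 at -2.86, for which the 6 h changes in dZF10 alone were -3.76, -3.14 and -1.94. The MYC target list went from a median of -0.14 to -0.45, with 52 of 56 members lower, although MYC at -0.87 was less reduced than at 6 h. The protocadherin list went from a median of -0.49 to -1.58. At 24 h, 18 cholesterol synthesis genes and 19 amino acid response genes were lower. These list counts at 24 h used the adjusted p alone, without a fold threshold. The 2-fold shares given above are therefore not their background, and a share over all genes is not given. Of the small steady changes, EIF5 (0.02), EZH1 (-0.06), EVL (0.07) and UHRF1 (0.04) did not pass at 24 h, FADS1 was at -0.73 and GABPB2 at 0.94.

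**Figure D5:**
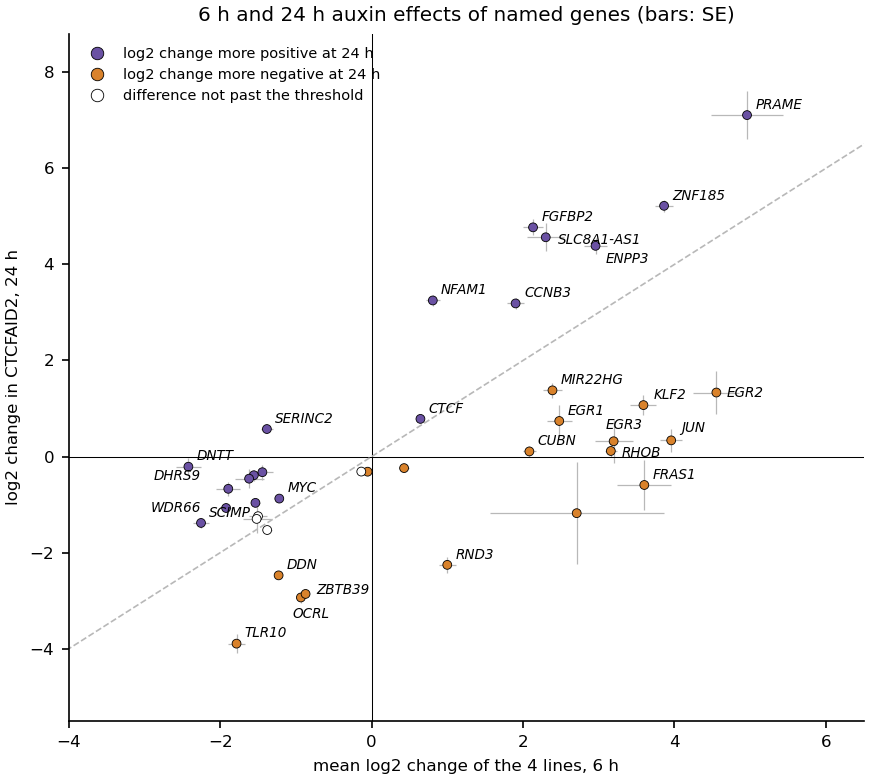
Mean log2 change of the 4 lines at 6 h (x axis) against the log2 change in CTCFAID2 cells at 24 h (y axis) with SE bars, for genes picked as discussed by the study, steepest at 6 h or most different between times; the dashed line marks equal change. Points above it (purple) include PRAME, ZNF185 and FGFBP2, and points below it (orange) include JUN, RHOB and EGR2, whose 24 h values are 0.34, 0.12 and 1.33.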

How the data were processed

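RNA was sequenced from 28 libraries of SEM cells, of which the 16 of the 6 h set were compared here. The authors deposited expected counts for each gene, made with RSEM 1.3.1 on Gencode v19 after alignment to GRCh37 by STAR 2.7.9a and trimming by Trim Galore 0.6.3, without normalization or pooling of replicates. The labels name a 3′ kit and the methods a stranded total RNA kit, and the strand setting of the counting was not given in the sources used here. Of 57820 genes read, 6.33% to 7.54% of values per library were not whole and were rounded. The 92 spike-in entries were at 0.

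Genes above 1 CPM in at least 1 library were fitted with limma 3.58.1 voom (R 4.3.3) and TMM factors (0.971 to 1.013) on line plus auxin with 11 residual degrees of freedom, and p-values were Benjamini-Hochberg adjusted over all 13902 genes tested. The threshold was an adjusted p of 0.05, and 2-fold calls also needed a log2 change of at least 1 in size. An interaction F-test used the 8 group means, and a joint fit of 28 libraries gave the 24 h effects. edgeR 4.0.16, DESeq2 1.42.0, other scalings and filters, replicate blocks and omission of each library or line were run as alternatives. The scripts were tested on simulated data. No library pair was a duplicate by a chi-square comparison of its counts.

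Named genes were the study's own and 3 others of interest in dZF10, the 12 largest rises and falls with one sign in all lines, at least 1 CPM in the higher arm and no clone name for a symbol, the 6 most significant small changes each way, the 4 members of each list with the smallest p, the 6 smallest interaction p and the 5 largest differences from 24 h each way. Members and lists were chosen with earlier results of these data known, and erythroid markers had no member to test. Promoter windows are from RefSeq GRCh38.p14, another build than that of the counts, and gene spans are from Gencode v44lift37 while counting used v19. Tables of the counts, FPKM and TPM of all 16 libraries together were not used, since the files per library hold the counts. Some list members are not reported here by name.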

Additional observations from a re-analysis of the deposited data

Results flagged for a closer look

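In groups of 8 libraries, 30 of 288 arms held 1 library far from the other 7 by Dixon's test, whose nominal rate is about 1 in 20. The arms share libraries and are not independent, so that rate is only a guide. In 13 of the 30 the outlying library was replicate 2 of dZF1 with IAA. That library was at 36.14 on the first and -27.35 on the second principal component. It held the highest treated value in KIF4A (116.8 CPM), EIF5 (403.2), FGFBP2 (5.295), DUSP6 (91.38) and MEIS1 (218.9). It held the lowest in MAZ (231 CPM), NKG7 (16.36), MVK (14.52), CCND3 (116.5), SESN2 (12.21) and RMRP (2970). Its sister library, replicate 1, stood apart in COL1A1 (1.88 CPM), PDGFRB (103.4), SCIMP (2.245), DDIT4 (90.19), SERINC2 (6.061) and NFAM1 (4.462).

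Other libraries that stood apart were replicate 1 of dZF10 without IAA in KIF4A (79.17 CPM), STAG1 (108.3) and TRAC (38.68), its replicate 2 in RHEBP2 (0.675), and replicate 1 of dZF10 with IAA in CTNNB1 (512). Without IAA, replicate 1 of dRBR stood apart in UGT3A2 (75.31 CPM) and CRELD2 (11.55), replicate 1 of dZF1 in INSIG1 (210.8), and replicates 1 and 2 of WT in DUSP6 (31.65) and LGR5 (0.7408). Replicate 2 of WT with IAA stood apart in MT-ND4 (163.2 CPM).

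The auxin effect differed between lines by the limma interaction test in 20 genes. The adjusted p was 3.25e-05 for OCRL, 0.00021 for ZBTB39, 0.00285 for TLR10, 0.00738 for RORB, 0.013 for TLR1, 0.0186 for UGT3A2, 0.0256 for ANKRD36B and 0.0332 for RP11-35G9.3. It was 0.0386 for TNFRSF10B, ITPR2, CD96 and DDN, 0.0391 for MEST, FAM63A and LIPC, 0.0439 for FAM65B, EXT2 and ANKRD36C, 0.0442 for HSPA1B and 0.0446 for ANKRD36. OCRL and ZBTB39 passed in 16 of 16 omissions of 1 library, TLR10 and RORB in 14, TLR1 in 9 and the other 15 in 2 to 4.

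Among genes that passed at 6 h, the log2 effect at 24 h minus that at 6 h was most negative for FRAS1 (-4.193), RHEBP2 (-3.887), JUN (-3.62), RND3 (-3.253) and EGR2 (-3.22). It was most positive for FGFBP2 (2.639), NFAM1 (2.441), SLC8A1-AS1 (2.264), DNTT (2.209) and PRAME (2.149). FRAS1 held 23 untreated and 284 treated counts at 6 h. RHEBP2 ran from 0 to 0.675 CPM without IAA and from 0 to 1.19 CPM with it, so its value rests on the floor.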

How the results depend on the processing

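The count of passing genes, 7092 at 6 h, was 7054 with edgeR, 7228 with DESeq2 and 5577 to 7286 without 1 of the lines, and 77.2% to 99.7% of the calls passed again with the same sign. Leaving out 1 library gave 3199 to 3709 higher and 3285 to 3861 lower genes, 90 to 103 and 92 to 122 at 2-fold, and 3000 to 3349 and 3069 to 3380 with one sign in every line. With no filter on low counts, 249 genes were 2-fold higher and 558 lower, and a stricter filter left 62 lower, since the filter sets how many low-abundance genes are tested. The interaction count of 20 was 3 to 2919 when 1 library was left out and 29 with edgeR, and the cause was not tested. The 24 h minus 6 h counts were 3247 to 4217 higher and 2965 to 3967 lower. The shorter CTCF motif was in 75.17% of higher genes with a window, and in 75.5% of all.

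With a replicate block, 7039 genes passed at 6 h (6754 with the block within line) and 11 passed the interaction test, where TNFRSF10B, ITPR2, CD96, DDN, FAM63A, LIPC, ANKRD36, ANKRD36C and HSPA1B no longer did. Treated and untreated libraries of one number deviated together in WT (0.291), dZF10 (0.417) and dRBR (0.242) but not in dZF1 (-0.286), so the numbers were not taken to pair libraries.

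NKG7, RORB and PRF1, none past the threshold at 6 h, changed sign. NKG7 was at 0.02104 with no filter, 0.08732 without the dZF1 line and -0.03109 to 0.06753 over single omissions. RORB was at -0.19 without the dZF1 line and -0.009433 to 0.1284 over single omissions, the lowest without replicate 2 of dZF1 with IAA. PRF1 was at -0.0585 without the dZF10 line and -0.005068 to 0.09713 over single omissions. Of 142 named genes, 127 kept their direction and their side of the threshold under every alternative.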

Other observations

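Classes of transcript differed in how they moved at 6 h. Of 11666 protein-coding genes tested, 28% were higher with IAA and 25.6% lower. Of 469 lincRNA genes, long RNAs between genes that encode no protein, 13% were higher and 33.3% lower, and of 437 antisense genes 15.6% and 29.5%. Among 881 pseudogenes, 7.26% were higher and 26.0% lower, and these share reads with their parent genes. Of 98 sense intronic genes, which lie within the introns of other genes, 10.2% were higher and 37.8% lower.

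Gene span moved with direction in the same way. Of 13495 genes with a position, the 2699 shortest, from 69 to 6828 bases from start to end, were higher in 14.5% and lower in 25.3%, with a median log2 change of -0.07. The 2699 longest, of at least 87634 bases, were higher in 35.3% and lower in 23.2%, with a median of 0.05. Without replicate 2 of dZF1 with IAA the medians were -0.05 and 0.04. Span, transcript class and abundance are related across genes, and their parts were not told apart.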
